A study of Mus musculus with 8 samples.

Results

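The genes of the chemokine system were followed in RNA from whole uterus and whole maternal brain of pregnant mice. They were taken by symbol: Ccl, Cxcl, Ccr, Cxcr or Ackr followed by a digit, together with Cx3cl1, Cx3cr1, Xcl1 and Xcr1, leaving out Cxcl15. This gave 65 entries of the 19884 genes in the count table, with 42 ligand entries and 23 receptor entries under 60 distinct symbols. The 2 groups were 4 brains and 4 uteri of wild-type C57BL/6J females aged 6 to 10 weeks, untreated and mated with fertile males, and both were taken on gestation day 4, when blastocysts were seen in fluid flushed from the uterus. Each library came from 1 animal. The labels do not say whether a brain and a uterus came from the same mouse, and there was no non-pregnant group, so the comparison is between organs of the same stage and not between pregnancy and its absence. The uteri were analysed whole, so that epithelium, stroma, muscle, vessels and resident immune cells contributed to 1 RNA pool, as did all cells of the brain.

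Chemokines are small secreted proteins that attract cells along a gradient by binding receptors coupled to inhibitory G proteins. Homeostatic members such as Cxcl12 are made steadily and place cells in tissues, whereas inflammatory members are induced by cytokines and draw in leukocytes. Atypical receptors bind chemokines without classical G protein signalling and take them up or carry them. In the uterus before implantation, chemokines are known for their part in the traffic of macrophages, dendritic cells and natural killer (NK) cells, and in the brain Cx3cl1 made by neurons and its receptor Cx3cr1 on microglia are a well-known pair.

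Library totals ran from 35394603 to 47790178 counts. Values below are CPM, each gene's count relative to its library's total after TMM scaling in edgeR. A count of 0 leaves room for up to 3 counts, which came to 0.0692 to 0.0810 CPM in a library, for counting error only. The organ labels fitted the defining markers: 5 neuronal markers summed to between 5485 and 5645 CPM in the brain libraries and to between 2.19 and 4.76 in the uterus libraries. The corresponding sum of 5 stromal markers was 8633 to 10597 CPM in uterus and 120 to 125 in brain. Of 5 blastocyst markers, Pou5f1 had no count in any of the 8 libraries and Cdx2 none in uterus, Nanog averaged 0.055 CPM in uterus and 0.047 in brain, Tfap2c 2.01 and 0.428, and Eomes, which NK cells share, 6.89 and 13.4.

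Chemokine system genes were mostly higher in uterus, while the brain's signal was held by a few abundant members. Of the 65 entries, 43 had enough counts to be tested, and the other 22 did not. By edgeR's quasi-likelihood F test with Benjamini-Hochberg adjustment over all genes, 31 of the 43 were higher in uterus and 7 were higher in brain. The 2 organs differ in most of their genes: 87.0% of all 16074 tested genes were called, 43.5% as higher in uterus and 43.6% as higher in brain. Read against those shares, the members called higher in uterus were 72.1% of those tested, and those higher in brain were 16.3%. Against a 2-fold change (glmTreat), 27 members were called higher in uterus and 6 higher in brain, where all genes gave 23.5% and 25.8% (49.3% in either direction). In 28 tested members every uterus library lay above every brain library and in 7 the reverse held, against 42.0% of all tested genes each way. The median log2 fold change (uterus over brain) was 2.70 over the tested members and 0.012 over all tested genes, a description of a list that was picked for its biology and not at random. The members that passed the filter on low counts are those with enough reads in an organ, so these shares do not speak for the 22 that were not tested.

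Detection, which puts a limit on the same CPM values, also counted more members in uterus. A member was taken as detected in an organ where each of its 4 libraries reached 1 CPM, and by this 32 entries were detected in uterus and 13 in brain. Of all entries, 12 were detected in both organs, 20 in uterus alone and 32 in neither. Only 1, the atypical receptor Ackr2, was detected in brain alone, and its uterus libraries lay on both sides of the limit. The shares of all genes detected in each organ are not given here, so these counts have no background to be read against. Summed over all entries, however, CPM was higher in brain, at 918 ± 37.2 (SD, n = 4) against 673 ± 22.8 in uterus. This sum and the shares that follow are of counts, in which longer genes weigh more. They do not give numbers of transcripts, and the order per kb of exon, given further below, differs. In brain, Cx3cl1 made up 70.9% of the ligand sum. In uterus the ligand sum was led by Cxcl12 with 49.5%, followed by Cxcl14 with 14.6%. Among receptors the leading entries were Ackr1 (41.4%) and Cx3cr1 (35.1%) in brain, and Ccr2 (32.2%) and Ackr3 (24.4%) in uterus.

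**Figure D1:**
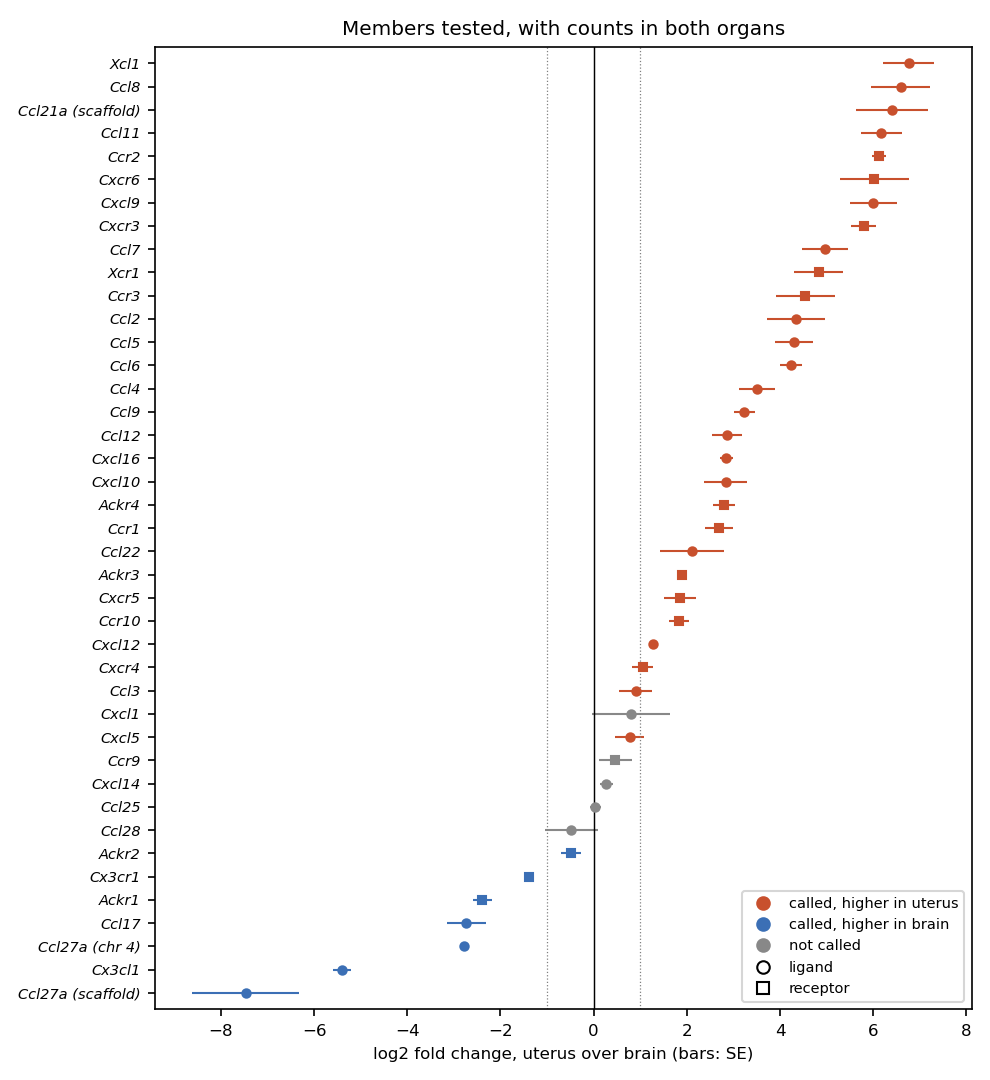
Log2 fold change of uterus over brain (x axis, points with SE bars) for the tested members reported here that had counts in both organs, sorted by size (y axis); circles are ligands, squares receptors, colours show the call, and dotted lines mark a 2-fold change. Most points lie to the right of 0; Cx3cl1 at -5.40 and Xcl1 at 6.76 are near the ends of the range.

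Among the homeostatic ligands the organs did not share a direction. Of 16 entries in the group, 7 were tested, 2 were higher in uterus, 2 were higher in brain and 3 were not called, with a median log2 fold change of 0.035. Cxcl12 (chr6:117168535-117181367), the ligand of Cxcr4 and Ackr3 and a retention signal for many progenitor cells, held the largest share of the members' summed CPM in uterus. It measured 244, 235, 269 and 224 CPM in the uterus libraries and 103, 101, 92.5 and 107 in the brain libraries. The groups did not overlap, and the log2 fold change was 1.27 ± 0.07 (SE, adjusted p = 4e-08 in edgeR). Cxcl14 (chr13:56288643-56296551), an epithelial and stromal chemokine, was abundant in both organs. Its uterus libraries held 57.6, 67.3, 62.9 and 98.04 CPM and its brain libraries 57.6, 59.99, 60.9 and 58.4. The fourth uterus library stood above the rest, and the difference was not called (log2 fold change 0.27 ± 0.14, adjusted p = 0.10 in edgeR; 95% interval by limma-voom -0.068 to 0.55). It was called with upper-quartile scaling (0.52, adjusted p = 0.005) and without uterus library 1 (0.38, adjusted p = 0.028), and came to 0.096 without uterus library 4. Ccl25 (chr8:4325210-4360020), known as the thymic and intestinal ligand of Ccr9, was close in both organs, with 10.4, 10.6, 12.8 and 13.5 CPM in uterus and 12.4, 10.9, 10.0 and 12.8 in brain. Its difference was not called in edgeR (log2 fold change 0.035 ± 0.12, adjusted p = 0.80), and the limma-voom 95% interval ran from -0.23 to 0.31. Of the Ccl25 exon bases, 2.74% are shared with Elavl1 on the opposite strand, at 102 CPM in uterus and 103 in brain. The Ccl25 level was 9.44% to 12.8% of that of Elavl1 in each library, and how many reads belong to either gene was not tested.

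The skin-homing ligand Ccl27a went the other way. Its chromosome 4 entry (chr4:41769467-41774247) measured 46.2, 52.0, 43.8 and 51.3 CPM in brain and 6.57, 7.22, 7.71 and 6.64 in uterus. Every brain library stood above every uterus library, by a log2 fold change of -2.78 ± 0.08 (adjusted p = 4.2e-10 in edgeR). Ccl28 (chr13:119623819-119654359), a mucosal ligand that shares the receptor Ccr10, varied between animals in both organs. It measured 5.29, 4.64, 5.34 and 0.710 CPM in brain and 1.56, 1.999, 5.33 and 2.56 in uterus. The organs overlapped and were not called apart (log2 fold change -0.48 ± 0.56, adjusted p = 0.44 in edgeR; limma-voom 95% interval -1.74 to 1.19).

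Ccl21, the lymphatic ligand that guides dendritic cells and T cells through Ccr7, and Ccl27 are encoded by near-identical gene copies, and the reads of a copy cannot be assigned with certainty. How far the copies can look alike is shown by the coding bases 64 to 214 of the chromosome 4 entries of Ccl21a and Ccl21b, the stretch that holds their differences, counted from 1 at the start codon (GENCODE M21, capitals mark the bases that differ). The coding sequences of 402 bases differed at 2 positions, written T84A and C194T with the Ccl21a base first. The genes are known as the serine and the leucine form of the protein.
Ccl21a: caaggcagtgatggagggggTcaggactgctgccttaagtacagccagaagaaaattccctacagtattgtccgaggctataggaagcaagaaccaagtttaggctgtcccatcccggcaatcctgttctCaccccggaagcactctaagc
Ccl21b: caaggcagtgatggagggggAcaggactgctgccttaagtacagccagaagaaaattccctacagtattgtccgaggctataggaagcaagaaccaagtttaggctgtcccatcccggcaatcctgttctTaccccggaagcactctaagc

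The table listed the Ccl21 copies as separate entries, and the counts of single entries differed from library to library. A Ccl21a entry on an unplaced scaffold measured 6.29, 4.12, 3.75 and 1.31 CPM in uterus and 0.135, 0, 0.0462 and 0 in brain (log2 fold change 6.41 ± 0.77, adjusted p = 1.9e-05 in edgeR, and 7.72 without brain library 1, which held most of its brain counts). A Ccl21c entry on another scaffold, named Ccl21b in GENCODE M21, held 4.82 CPM in uterus library 3. It held 0.126, 0.0235 and 0.0233 CPM in uterus libraries 1, 2 and 4. The chromosome 4 entry of Ccl21b had 44 counts in brain and none in uterus. Summed over the 9 entries of these copies, which include predicted genes outside the symbol rule, Ccl21 measured 7.78, 7.74, 10.7 and 1.75 CPM in uterus and 0.648, 1.25, 1.16 and 0.0237 in brain. The family sum was called higher in uterus (log2 fold change 3.17 ± 0.72, adjusted p = 0.0019 in edgeR), and its lowest library in each organ was the fourth. The sum over 7 entries of the Ccl27 family gave 50.04, 53.5, 44.5 and 53.1 CPM in brain and 6.62, 7.31, 7.76 and 6.64 in uterus, close to the chromosome 4 entry of Ccl27a alone. A second Ccl27a entry, on a scaffold, had 258 counts in brain and 1 in uterus, a ratio of 256 with an exact 95% interval of 45.5 to 10143 that covers counting error only. Brain library 1 held 129 of those 258 counts, and the fitted log2 fold change of -7.47 came to -6.78 without that library and to -9.06 without uterus library 1.

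**Figure D2:**
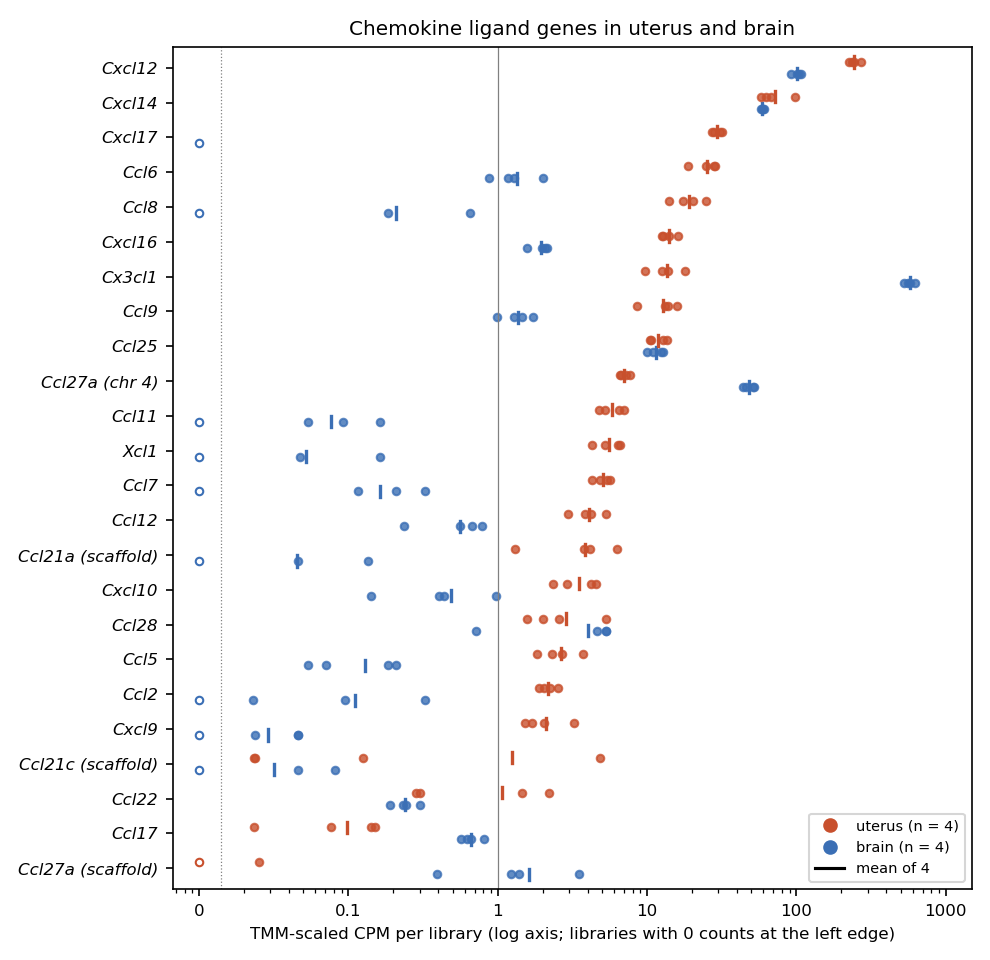
TMM-scaled CPM (x axis, log scale, open circles at the left edge are libraries with 0 counts) of the named ligand entries (y axis, sorted by the uterus mean); each point is a library, red for uterus and blue for brain, and the short bar is the mean of 4. Cx3cl1, both Ccl27a entries and Ccl17 have all blue points to the right of the red ones, and Cxcl17 has no count in brain.

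Among the other ligands, Cx3cl1 (chr8:94772009-94782427) had the highest level of all members, in CPM and per kb of exon. Its product, fractalkine, is a membrane-anchored chemokine of neurons and endothelium. Brain libraries held 530, 627, 576 and 561 CPM and uterus libraries 12.6, 18.1, 13.9 and 9.63, 42.3-fold less on average. The groups were far apart (log2 fold change -5.40 ± 0.18, adjusted p = 1e-09 in edgeR). Cxcl17 (chr7:25400053-25412886), a chemokine of mucosal epithelium, was the reverse case. It measured 31.9, 30.9, 27.1 and 28.2 CPM in uterus, and the 4 brain libraries together held 0 counts. Against 3 counts over the brain libraries together, it was at least 1633-fold higher in uterus (adjusted p = 3.9e-09 in edgeR). The 5 epithelial markers, among them Epcam and Cdh1, summed to 578 to 699 CPM in uterus and 5.90 to 9.10 in brain; their part in the Cxcl17 difference was not tested.

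Cxcl16 (chr11:70453983-70459984), a transmembrane chemokine of antigen-presenting cells, measured 12.8, 16.2, 12.7 and 14.0 CPM in uterus and 1.97, 1.57, 2.15 and 2.06 in brain. The uterus libraries were all higher, by a log2 fold change of 2.85 ± 0.14 (adjusted p = 1.6e-08 in edgeR). Of its exon bases, 18.3% are shared with Zmynd15 on the opposite strand, which measured 7.92 CPM in uterus and 1.04 in brain. The library kit keeps strand, but the strand setting of the counting is not given in the sources used here, so reads of the pair may not have been told apart. Xcl1 (chr1:164931644-164935527), known from NK cells and activated T cells as the ligand of Xcr1, measured 5.24, 6.56, 4.26 and 6.34 CPM in uterus, against 8 counts in all in brain, 6 of them in brain library 1. Its log2 fold change of 6.76 ± 0.55 (adjusted p = 8.4e-07 in edgeR) came to 8.25 without that library. Of the Xcl1 exon bases, 18.7% are shared with Gm20743 on the opposite strand, a gene without values here. The markers of NK cells moved the same way: 6 of 7 were called higher in uterus and 1 higher in brain, with sums of 75.5 to 90.1 CPM against 10.7 to 15.5. The brain sum lay almost wholly in Eomes, at 13.4 CPM, while Ncr1 measured 8.74 CPM in uterus and 0.0657 in brain. The part of these cells in the Xcl1 difference was not tested. In whole-organ RNA, here and below, fewer cells of a type and less RNA per cell cannot be told apart.

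Ligands that are induced in inflammation were described by the receptor they bind. The 3 ligands of Ccr2, which draws monocytes out of the blood, were all called higher in uterus, with a median log2 fold change of 4.35. Ccl7 (chr11:82045712-82047525) measured 4.86, 5.39, 4.26 and 5.64 CPM in uterus and 0.324, 0.115, 0.208 and 0 in brain (4.97 ± 0.49, adjusted p = 3.9e-06 in edgeR). Ccl12 (chr11:82101845-82103400) measured 3.85, 2.94, 4.24 and 5.27 CPM in uterus against 0.783, 0.669, 0.554 and 0.237 (2.86 ± 0.33, adjusted p = 1.4e-05 in edgeR). The classical monocyte chemokine Ccl2 (chr11:82035571-82037453) was even across uterus, at 2.04, 2.54, 1.90 and 2.24 CPM. In brain 12 of its 17 counts lay in library 1. Its log2 fold change of 4.35 ± 0.63 (adjusted p = 7.7e-05 in edgeR) came to 5.72 without that library.

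All 5 ligands of a chromosome 11 group (Ccl3, Ccl4, Ccl5, Ccl6 and Ccl9) were called higher in uterus, and 4 of them passed the 2-fold test. Ccl6 and Ccl9, rodent chemokines of macrophages and myeloid cells, led this group. Ccl6 (chr11:83587882-83593087) measured 28.1, 24.8, 28.5 and 18.7 CPM in uterus and 2.02, 1.18, 0.878 and 1.28 in brain (log2 fold change 4.23 ± 0.24, adjusted p = 5.3e-08 in edgeR). Ccl9 (chr11:83572919-83578636) measured 15.8, 13.2, 13.7 and 8.55 CPM against 1.73, 1.45, 0.993 and 1.28 (3.23 ± 0.23, adjusted p = 3.1e-07 in edgeR). In both genes the fourth uterus library was the lowest of its organ, yet far above brain. Ccl5, a T cell and NK cell product, measured 2.64 ± 0.810 CPM in uterus and 0.129 ± 0.0781 in brain (log2 fold change 4.29 ± 0.41). Ccl3 and Ccl4, the macrophage inflammatory proteins, stayed under 1 CPM on average in both organs; Ccl4 was 0.847 CPM in uterus against 0.0709, and Ccl3 was 0.405 against 0.215 with overlapping libraries (0.90 ± 0.35, adjusted p = 0.033 in edgeR). The Ccl3 call was lost in 10 of 18 alternatives (adjusted p 0.0094 to 0.26), among them the replicate block (0.056), DESeq2 (0.10) and the fits without brain library 1, 3 or 4 or uterus library 2, 3 or 4 (values from 0.74 to 0.93).

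Cxcl9 and Cxcl10, the interferon-induced ligands of Cxcr3, were both higher in uterus. Cxcl9 (chr5:92321347-92328079) measured 1.69, 1.53, 3.22 and 2.03 CPM in uterus and had 5 counts in all in brain (log2 fold change 6.00 ± 0.50, adjusted p = 9.3e-07 in edgeR). Cxcl10 (chr5:92346638-92348889) measured 2.92, 2.35, 4.24 and 4.57 CPM in uterus and 0.405, 0.438, 0.970 and 0.142 in brain. The organs did not overlap (2.83 ± 0.46, adjusted p = 0.00018 in edgeR), and without brain library 3, its highest, the value was 3.42. Of its exon bases, 5.91% are shared with Art3 on the opposite strand, at 7.36 CPM in uterus and 3.87 in brain.

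The 250 bases before the Cxcl10 start site carry both motifs that were searched in the promoters of the system. RefSeq windows (GRCm38.p6) were matched for 45 member symbols and read on both strands. The core of the interferon-stimulated response element (GAAA, any 2 bases, GAAA) was found in 3 of the 45 (6.67%: Ccl19, Cxcl10 and Cxcl14) and, counted the same way, in 3.46% of all symbols. Counted per window of the same length, the shares were 5.77% of 52 member windows and 2.98% of all 32851. The NF-kB consensus was found in 11 of the 45 symbols (24.4%, any window of a symbol counted) and in 8.23% of all 27025 symbols with a window; per window the shares were 21.2% and 7.25%. The Cxcl10 window is chr5:92348890-92349139 on the minus strand, shown 5′ to 3′ with the motif matches in capitals. The response element core lies at bases -213 to -204 from the start, and NF-kB matches lie at -159 to -150 and, overlapping each other, at -104 to -94.
Cxcl10: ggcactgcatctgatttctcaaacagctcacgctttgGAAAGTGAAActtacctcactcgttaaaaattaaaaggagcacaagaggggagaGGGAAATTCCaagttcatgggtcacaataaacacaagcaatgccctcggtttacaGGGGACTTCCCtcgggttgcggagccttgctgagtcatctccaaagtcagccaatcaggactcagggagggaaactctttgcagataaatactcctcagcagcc

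Cxcl1, Cxcl2 and Cxcl3, neutrophil attractants that bind Cxcr2 and lie in the same gene cluster on chromosome 5, share an NF-kB match of the same letters close to the start site. The windows of 60 bases around it are shown to set the common letters beside the low levels of these genes; they are chr5:90891149-90891208, chr5:90903777-90903836 and chr5:90786003-90786062 on the plus strand. A match is a description of letters and says nothing of binding.
Cxcl1: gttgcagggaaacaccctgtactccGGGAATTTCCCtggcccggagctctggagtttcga
Cxcl2: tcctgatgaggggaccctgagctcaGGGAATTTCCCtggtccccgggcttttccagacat
Cxcl3: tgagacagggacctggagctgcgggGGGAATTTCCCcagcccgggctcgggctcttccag

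These 3 genes were close to the limit of detection. Cxcl1 measured 0.176, 0.541, 0.304 and 0.280 CPM in uterus and 0.594, 0.0923, 0 and 0.0946 in brain, where 22 of its 30 counts lay in library 1. It was not called in edgeR (log2 fold change 0.80 ± 0.84, adjusted p = 0.38; limma-voom 95% interval -0.24 to 3.85), but was called higher in uterus without brain library 1 (2.35, adjusted p = 0.015). Cxcl2 and Cxcl3 averaged 0.0495 and 0.0360 CPM in uterus and were not tested. Their neighbour Cxcl5 was called higher in uterus, at 0.886 against 0.521 CPM with overlapping libraries (0.77 ± 0.31, adjusted p = 0.035 in edgeR). The Cxcl5 call was lost in 8 of 18 alternatives (adjusted p 0.009 to 0.12), among them the replicate block (0.083), DESeq2 (0.061) and the fits without brain library 2, 3 or 4 or uterus library 2 or 4 (values from 0.63 to 0.77).

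In the group of ligands for Ccr3, Ccr4 and Ccr8, the eosinophil and type 2 receptors, 4 of 7 were tested and 3 were higher in uterus. Ccl8 (chr11:82115185-82116799), a product of resident macrophages, measured 20.3, 24.6, 17.4 and 14.1 CPM in uterus. In brain it measured 0.648, 0.185, 0 and 0 CPM, with 24 of its 32 counts in library 1. Its log2 fold change was 6.59 ± 0.64 (adjusted p = 3.4e-06 in edgeR) and 8.21 without that library. Ccl11 (chr11:82057823-82062955), eotaxin, measured 4.76, 5.20, 6.97 and 6.50 CPM in uterus and 0.054, 0.0923, 0.162 and 0 in brain. The organs were well apart (6.17 ± 0.44, adjusted p = 2.7e-07 in edgeR), and the value was 6.83 without brain library 3. Levels of eosinophil markers were low in both organs, with sums of 0.680 to 1.07 CPM in uterus and 0.710 to 1.32 in brain, and Ear6 was at 0 in all libraries. Ccl17 and Ccl22, the ligands of Ccr4 made by dendritic cells, lie on both sides of Cx3cl1 on chromosome 8 and differed in direction. Ccl17 was higher in brain at a low level, with 0.567, 0.807, 0.624 and 0.662 CPM against 0.151, 0.141, 0.0761 and 0.0233 in uterus (-2.74 ± 0.42, adjusted p = 0.00012 in edgeR). Ccl22 was called higher in uterus (2.12 ± 0.69, adjusted p = 0.014 in edgeR), but its uterus libraries fell into a high and a low pair, at 1.46 and 2.21 CPM in libraries 1 and 3 and 0.282 and 0.303 in libraries 2 and 4. The low pair overlapped the brain libraries, at 0.189 to 0.300 CPM. The Ccl22 value came to 1.48 (adjusted p = 0.049 in edgeR) without uterus library 3. The call was lost with limma-voom (1.53, adjusted p = 0.087). Over 18 alternatives the adjusted p ran from 0.00012 to 0.087. The 0.00012 came from an edgeR fit without brain library 1 and uterus libraries 2 and 4. That fit was added after the data were seen and leaves out the low pair. The next lowest was 0.0031 in edgeR, without uterus library 4, itself of the low pair.

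Of 23 receptor entries, 16 were tested, 12 were higher in uterus, 3 were higher in brain and 1 was not called. Ccr2 (chr9:124101950-124113557), the receptor of inflammatory monocytes, held the largest share of the receptor sum in uterus. It measured 65.6, 54.9, 59.7 and 55.2 CPM in uterus and 0.918, 0.692, 1.13 and 0.615 in brain, which is 70.1-fold more in uterus. The difference was far larger than the spread within either organ (log2 fold change 6.13 ± 0.15, adjusted p = 1.1e-10 in edgeR). Ccr1, a myeloid receptor, averaged 2.83 ± 0.601 CPM in uterus and 0.433 ± 0.166 in brain (2.70 ± 0.30), and Ccr3, the eotaxin receptor, 1.20 ± 0.665 against 0.0481 ± 0.0379 (4.55 ± 0.62). Ccr10, the receptor of Ccl27 and Ccl28, averaged 3.16 ± 0.332 CPM against 0.878 ± 0.236 (1.84 ± 0.22). In each of these genes every uterus library lay above every brain library.

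The markers of macrophages and monocytes moved with these receptors in part. Of 7, 5 were called higher in uterus and 2 higher in brain, with sums of 269 to 340 CPM in uterus and 125 to 159 in brain. Lyz2 measured 185 CPM in uterus against 13.2 in brain, whereas Csf1r, which microglia share, measured 35.9 against 94.3. Their part in the differences of Ccr1 and Ccr2 was not tested.

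Among CXC, CX3C and XC receptors, 5 of 6 tested were higher in uterus. Cxcr3 (chrX:101731535-101734269), the receptor of activated T and NK cells, measured 3.07, 2.40, 2.56 and 3.33 CPM in uterus and had 8 counts in all in brain, 2 in each library (5.79 ± 0.27, adjusted p = 1e-08 in edgeR). Cxcr6 (chr9:123806475-123811760), the receptor of Cxcl16 on T cells, NK cells and other innate lymphocytes, measured 9.84, 1.74, 6.01 and 3.80 CPM in uterus. Its brain libraries held 0.189, 0.0923, 0 and 0.0473 CPM, and the log2 fold change of 6.03 ± 0.75 (adjusted p = 2.5e-05 in edgeR) came to 6.77 without brain library 1. Xcr1 (chr9:123852315-123862029), which marks cross-presenting dendritic cells, measured 2.06, 3.10, 1.98 and 1.38 CPM in uterus and 0.0712 on average in brain (4.83 ± 0.53, adjusted p = 8.8e-06 in edgeR). The 5 dendritic cell markers did not move together: 1 was higher in brain and 3 in uterus, and their sums were 44.0 to 65.2 CPM in uterus and 54.6 to 59.6 in brain. Clec9a, of the cross-presenting type, measured 7.76 CPM in uterus and 0.363 in brain, whereas Flt3 measured 4.28 and 25.7. Markers of T cells were higher in uterus in 5 of 7 and in brain in none, with sums of 17.7 to 24.6 CPM against 1.49 to 1.91. The part of these cells in the receptor differences was not tested. Cxcr4 (chr1:128588199-128592293), the Cxcl12 receptor, was higher in uterus at 4.13, 5.76, 4.54 and 3.05 CPM against 2.78, 2.01, 1.80 and 1.87. The call held in edgeR (1.05 ± 0.23, adjusted p = 0.0014), but the change did not pass the 2-fold test (adjusted p = 0.36).

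Cx3cr1 (chr9:119901616-120069879), the fractalkine receptor of microglia and of many macrophages, was higher in brain but by far less than its ligand. It measured 44.2, 36.7, 33.6 and 39.2 CPM in brain and 14.6, 16.9, 13.6 and 14.1 in uterus, 2.60-fold less. The organs did not overlap (-1.38 ± 0.10, adjusted p = 3.9e-07 in edgeR). Of 5 microglial markers, 3 were higher in brain, including P2ry12 at 33.9 CPM against 1.31. Tmem119 and Sall1, listed as microglial, were higher in uterus, at 67.8 against 18.4 CPM and 124 against 31.4.

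**Figure D3:**
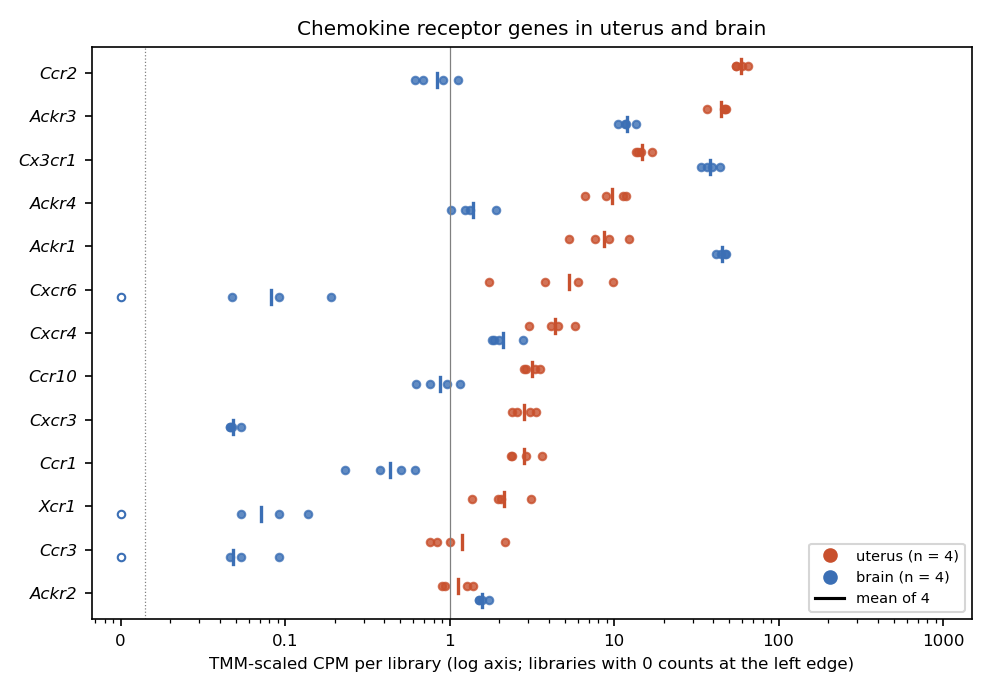
TMM-scaled CPM (x axis, log scale, open circles at the left edge are libraries with 0 counts) of the named receptors (y axis, sorted by the uterus mean); points are libraries, red for uterus and blue for brain, and short bars are means of 4. The red points of Ccr2 lie between 54.9 and 65.6 and its blue points between 0.615 and 1.13, while Cx3cr1 and Ackr1 have the blue points to the right.

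The 4 atypical receptors were split, 2 higher in each organ. Ackr3 (chr1:90203980-90216751), a scavenger of Cxcl12, measured 47.9, 36.9, 46.5 and 47.3 CPM in uterus and 10.6, 13.5, 11.7 and 11.9 in brain (1.90 ± 0.10, adjusted p = 3.9e-08 in edgeR). In uterus Ackr3 thus stood well above Cxcr4, the signalling receptor of the same ligand, also per length of exon: 13.3 ± 1.56 CPM per kb against 2.42 ± 0.619. Ackr4 (chr9:104084157-104126933), which takes up Ccl21, Ccl19 and Ccl25, measured 11.3, 8.89, 6.70 and 11.8 CPM in uterus and 1.03, 1.34, 1.25 and 1.92 in brain (2.80 ± 0.24, adjusted p = 1.5e-06 in edgeR). Of its exon bases, 8.90% are shared with Acad11 on the opposite strand, at 21.03 CPM in uterus and 24.8 in brain. Ackr1 (chr1:173331886-173333750), a receptor of red cells and of venules, measured 47.8, 44.7, 41.7 and 47.1 CPM in brain and 7.65, 9.31, 12.3 and 5.34 in uterus (-2.39 ± 0.21, adjusted p = 1.4e-06 in edgeR). It shares 25.7% of its exon bases with Cadm3, a neural adhesion gene on the same strand that measured 608 CPM in brain and 22.4 in uterus. The Ackr1 level was 6.86% to 8.06% of that of Cadm3 in each brain library and 33.0% to 43.7% in each uterus library; how many reads belong to either gene was not tested. Ackr2 (chr9:121898355-121911074), a scavenger of inflammatory CC chemokines, measured 1.57, 1.73, 1.502 and 1.51 CPM in brain and 0.931, 0.894, 1.39 and 1.28 in uterus. Its call was at the threshold (-0.49 ± 0.21, adjusted p = 0.048 in edgeR) and was lost in 13 of 19 alternatives, with adjusted p from 0.027 to 0.31. These included the fits without each brain library (adjusted p 0.075 to 0.12, from -0.43 to -0.51) and without uterus libraries 1, 2 and 4 (-0.39, -0.39 and -0.54).

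Levels of different genes were ordered per kb of exon, on a scale of CPM per kb. In brain, Cx3cl1 was first at 146 ± 10.4, with no overlap with the next. Cxcl14 (32.4 ± 0.819) and Ackr1 (32.2 ± 1.97) overlapped each other, with the exon overlap of Ackr1 noted above, and stood above Ccl27a (20.3 ± 1.68), Cxcl12 (12.4 ± 0.751), Cx3cr1 (8.53 ± 0.999) and Ackr3 (3.56 ± 0.361), each of these apart from its neighbour. The uterus had no such single leader. Cxcl14 (39.1 ± 9.94), Cxcl17 (38.8 ± 2.93), Ccl8 (37.4 ± 8.74) and Cxcl12 (29.7 ± 2.37) did not separate from their neighbours, and Cxcl12 stood apart from Ccl6 (13.9 ± 2.51) below it. Ackr3, Xcl1 (10.7 ± 2.04), the scaffold entry of Ccl21a and Ccr2 (8.71 ± 0.738) followed with overlapping libraries.

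Ligands and receptors were also set side by side as 23 known pairs. Both partners were detected in uterus in 11 pairs and in brain in 3, and the 3 pairs of brain were among the 11 of uterus. They were Cxcl12 with Cxcr4, Cxcl12 with Ackr3, and Cx3cl1 with Cx3cr1. The 8 found in uterus alone were Ccl2 and Ccl7 with Ccr2, Cxcl9 and Cxcl10 with Cxcr3, Cxcl16 with Cxcr6, Xcl1 with Xcr1, and Ccl27a and Ccl28 with Ccr10. For several pairs a ligand was present and its receptor low. Ccl25 was at 11.8 CPM in uterus and 11.6 in brain, while Ccr9 was at 0.418 and 0.302, not called between organs (0.47 ± 0.35, adjusted p = 0.23 in edgeR; limma-voom 95% interval -0.30 to 1.42). Of the Ccr9 exon bases, 19.0% are shared with genes on the opposite strand, and the exon overlap of Ccl25 is given above. Ccl27a in brain, at 49.9 CPM over its 3 entries, stood beside Ccr10 at 0.878. Levels in whole organs do not show whether the partners were in neighbouring cells.

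**Figure D4:**
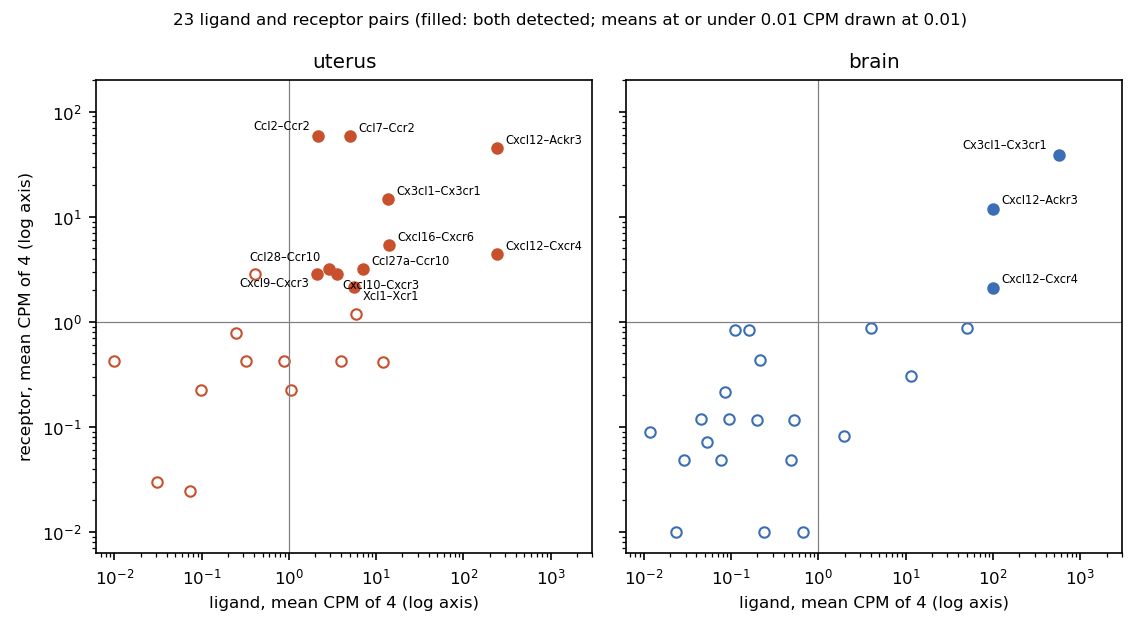
Mean CPM over 4 libraries of the ligand (x axis, log scale) and of the receptor (y axis, log scale) for 23 ligand and receptor pairs in uterus (left) and brain (right); filled points are pairs with both partners at 1 CPM or more in all 4 libraries, grey lines mark 1 CPM, and means at or under 0.01 CPM are drawn at 0.01. There are 11 filled points in uterus and 3 in brain.

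Many members lie in gene clusters with gaps of at most 200000 bases, and 5 clusters are given here, read beside the 43.5% of all tested genes that were higher in uterus and the 43.6% higher in brain. In the chromosome 11 cluster of Ccl2, Ccl7, Ccl11, Ccl12, Ccl8 and Ccl1 (chr11:82035571-82305690), 5 members were tested and 5 were higher in uterus. In the next cluster on that chromosome (chr11:83525778-83664683: Ccl5, Ccl9, Ccl6, Ccl3 and Ccl4) all 5 were tested and higher in uterus. The cluster of Ccl22, Cx3cl1 and Ccl17 on chromosome 8 (chr8:94745590-94812036) was mixed, as given above. On chromosome 5, Cxcl9 and Cxcl10 (chr5:92321347-92348889) were both higher in uterus, and of Cxcl5, Cxcl3, Cxcl1 and Cxcl2 (chr5:90759360-90905938) 2 were tested, with Cxcl5 called and Cxcl1 not. Genes of a cluster are related copies and are not independent of each other.

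Some members differed between animals more than most genes of like level. Ccl22, with a coefficient of variation of 88.5% over the uterus libraries, exceeded 97.7% of genes of like level. Cxcr6 had 64.8% and exceeded 97.6%, and Ccl28 had 59.1% in uterus and 55.4% in brain. Cxcl14, at 71.5 CPM in uterus, had 25.4% there and exceeded 96.7%. Scaffold entries, whose reads cannot be assigned with certainty, also varied widely. Ccl21c had 191% in uterus and Ccl27a 81.0% in brain. Ccr7, the receptor of Ccl21 on migrating dendritic cells and T cells, was not tested but had the same high and low uterus libraries as Ccl22, with 0.655 and 0.710 CPM in libraries 1 and 3 and 0.188 and 0.140 in libraries 2 and 4. All 4 lymphatic endothelial markers (Prox1, Flt4, Pdpn and Lyve1) were also higher in uterus libraries 1 and 3; their sum was 117 and 115 CPM there against 75.5 and 78.5 in libraries 2 and 4, and their part was not tested. In uterus library 3, which led Ccl22 and Ccr3 (2.18 CPM against 0.755 to 1.01), mast cell markers summed to 20.8 CPM, against 2.10 to 9.01 in the other uteri. Cxcr2, the neutrophil receptor, was not tested; it measured 1.03 CPM in uterus library 4 and 0.0941 to 0.355 in the others, and neutrophil markers summed to 11.9 CPM in that library and to 5.51 to 7.18 in the others.

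In brain, library 1 was the highest of the 4 for 18 of the 42 tested members with counts there (42.9%), where it was the highest for 29.5% of all tested genes. It held 12 of 17 counts of Ccl2, 24 of 32 of Ccl8, 22 of 30 of Cxcl1, 12 of 18 of Cxcr2 and all 14 of Ccl19, a homeostatic ligand that was not tested. Neutrophil markers summed to 19.3 CPM in that library and 8.09 to 11.1 in the others, and markers of macrophages and monocytes to 159 against 125 to 132. The neutrophil sum there lay almost wholly in Csf3r (9.12 CPM), S100a9 (5.69) and S100a8 (4.37), each highest in brain library 1. Ly6g and Elane had no counts there, and Mpo, at 0.108 CPM, was lower than in brain library 2 (0.138). The sum of red cell markers in brain library 1 was lower than in the other brains, 77.7 CPM against 137 to 263. None of these was tested as a source of the difference. With brain library 1 and uterus libraries 2 and 4 left out, a fit added after the data were seen, edgeR called 32 members higher in uterus and 7 higher in brain, and 30 and 6 past 2-fold. Over all genes that fit called 6994 and 6991. It lost the calls of Ccl3 (adjusted p = 0.26 in edgeR), Cxcl5 (0.12) and Ackr2 (0.2). The filter on low counts was run again, so its totals include entries not tested in the main fit.

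**Figure D5:**
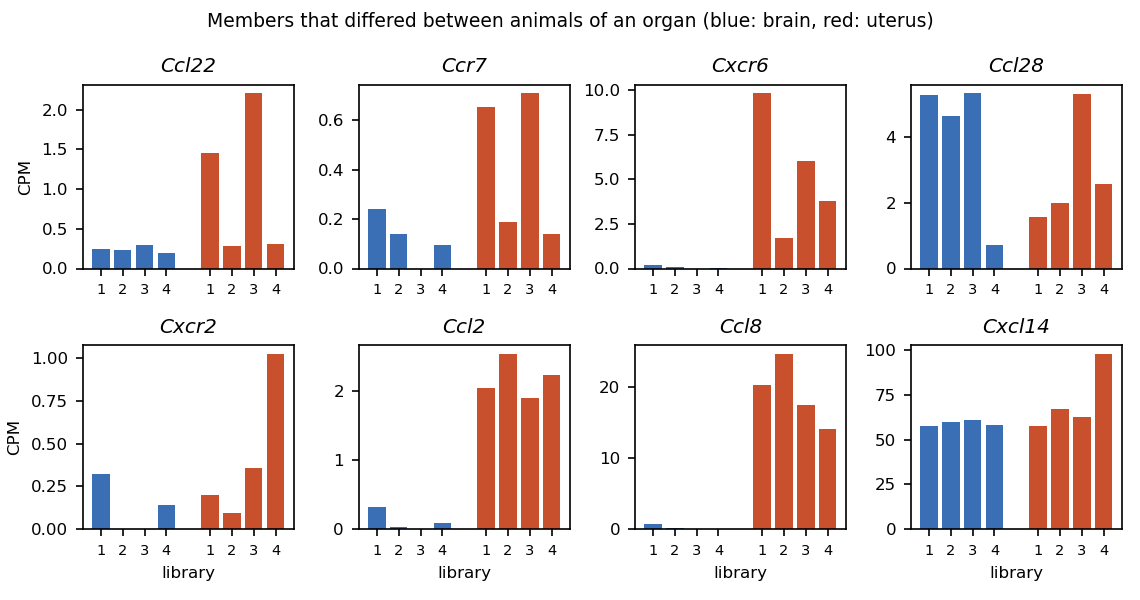
CPM in each library (x axis, libraries 1 to 4 of brain in blue and of uterus in red; y axis, linear and starting at 0) for 8 members whose values differed between animals of an organ. Ccl22 and Ccr7 are high in uterus libraries 1 and 3, Cxcr2 and Cxcl14 in uterus library 4, and Ccl28 is low in brain library 4.

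The remaining members were near the limit of detection. Of the tested ones not yet given, Cxcr5, the B cell follicle receptor, was at 0.778 CPM in uterus and 0.217 in brain (1.85 ± 0.34, adjusted p = 0.00047 in edgeR). Its ligand Cxcl13 was at 0.245 and 0.0856 CPM and was not tested. Of the Cxcr5 exon bases, 3.30% are shared with Bcl9l on the opposite strand, at 45.7 CPM in uterus and 41.7 in brain. Ccr4 had 37 counts in uterus and 0 in brain, at least 12.4-fold higher against 3 counts over the brain libraries. The other entries without a test were Ccl1, Ccl20, Ccl24, Ccl26, Ccr1l1, Ccr6, Ccr8, Cxcr1, Ccl27b and the remaining copies of Ccl21 and Ccl27a, with means under 0.3 CPM in both organs. At this depth their absence cannot be told from a low level.

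Other genes of the pathway were counted from lists chosen by function. Among 8 relatives of the family outside the symbol rule, edgeR called 7 higher in uterus and 0 higher in brain, and their median log2 fold change was 1.91. They included Cd74, a receptor of the cytokine Mif, at 160 ± 27.9 against 4.49 ± 1.05 CPM, the chemerin gene Rarres2 at 90.7 ± 5.89 against 5.04 ± 0.241, and platelet factor 4 (Pf4) at 4.97 ± 0.242 against 0.933 ± 0.107. Of 12 inducers and regulators of chemokine transcription, 10 were tested and all 10 had higher levels in uterus (median 2.27). Among the 10 was Nfkbia, an inhibitor of NF-kB, at 86.2 ± 20.7 against 21.6 ± 2.09 CPM. Irf1 was at 59.6 ± 4.05 against 6.76 ± 0.635 CPM, Nfkb2 at 35.3 ± 4.81 against 4.46 ± 0.276 and Irf7 at 22.2 ± 1.54 against 3.10 ± 1.09. Of 20 receptor signalling genes, 7 had higher levels in brain and 12 in uterus; the median was 0.65. The leukocyte GTPase Rac2 was at 24.1 ± 1.87 CPM in uterus against 2.09 ± 0.557, whereas the kinase Ptk2b (348 ± 7.05) and Elmo1 (161 ± 8.79) were higher in brain, with 45.3 ± 5.58 and 26.9 ± 1.46 in uterus.

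Desensitization genes were divided, with 4 of 10 tested higher in uterus and 5 in brain. Those higher in uterus included the regulators of G protein signalling Rgs1 (10.4 ± 3.38 against 0.112 ± 0.0725 CPM), Rgs2 (670 ± 87.0 against 61.1 ± 5.63) and Rgs18 (1.42 ± 0.409 against 0.263 ± 0.109). The 5 higher in brain were the receptor kinases Adrbk1 (246 ± 14.6 against 87.2 ± 3.57 CPM in uterus) and Adrbk2 (162 ± 10.5 against 30.8 ± 4.64), the arrestins Arrb1 (444 ± 25.1 against 242 ± 14.3) and Arrb2 (48.6 ± 1.95 against 37.6 ± 4.31), and Rgs16 (24.1 ± 0.335 against 6.69 ± 1.07). Of 11 tested genes for ligand processing and display, 8 were higher in uterus and 2 in brain. Dpp4, the protease that trims many chemokines, measured 32.4 ± 11.3 CPM in uterus and 4.40 ± 0.684 in brain. The matrix protease Mmp2 measured 434 ± 33.7 against 3.01 ± 0.433, and the heparan sulfate carrier Sdc1 114 ± 13.5 against 3.29 ± 0.299. The heparan sulfate enzymes Hs6st1 and Ndst1 were higher in brain, at 57.2 ± 4.21 and 111 ± 6.42 CPM against 37.8 ± 1.52 and 95.3 ± 6.46. All of these calls are edgeR's over all genes, with the same background shares of 43.5% and 43.6%.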

How the data were processed

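Total RNA of 8 libraries (Qiagen RNeasy, Illumina TruSeq Stranded Ribo-Zero) was used. Per the submitters' processing notes, FastQC, HISAT2 2.0.3, featureCounts and edgeR were used on GRCm38.p5; on annotation release, strandedness of counting and reads with several alignments, nothing is stated in those notes or in the labels. The deposited values are raw counts per gene, whole numbers with no normalization. Among values of 1 to 10 counts, 65.5% were even, which was not explained, so intervals for low counts, which cover counting error only, may be too narrow.

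Counts were scaled by TMM and filtered with filterByExpr by organ, and 16074 genes were tested with edgeR 4.0.16 (R 4.3.3) by the quasi-likelihood F test, two-sided, uterus over brain, Benjamini-Hochberg threshold 0.05, and by glmTreat against 2-fold. Standard errors were taken as the estimate over the root of its F statistic. The procedure recovered 97.0% of 2-fold changes simulated for this comparison over 15971 genes, and 5.34% of its calls were false. The simulation changed few genes, whereas 87.0% of genes were called in the data. It changed only genes above a count limit and gave every gene the same spread between animals. Its result therefore does not speak for members that were low or uneven. Limma 3.58.1 and DESeq2 1.42.0 served as alternatives, beside other scalings, filters, detection limits of 0.5 and 2 CPM, a block for replicate number, and leaving out each library. Coordinates, exon lengths and coding sequences are from GENCODE M21 (GRCm38), where all 65 entries were found. Copies were searched with BLAST+ 2.17.0 at 98% identity over 150 nt. Transcript sequences were found for 59 of the 65 entries. The 6 entries on unplaced scaffolds had none, so they were not compared and joined the copy families by symbol. Members and lists were chosen with earlier results of these data known. Members at a mean of 1 CPM or more in an organ, and called members against the median of their role group, are given in full; others were named for a count, pair or motif after their values were seen. The replicate numbers did not pair the organs (correlation of deviations for equal numbers -0.048 to 0.083), so p-values use no block. Values of 1 member, and pairs with it, are not reported here; counts of members include it.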

Additional observations from a re-analysis of the deposited data

Results flagged for a closer look

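Of 53 sets of 4 libraries examined for a value far from the other 3, 3 stood out by Dixon's criterion, where chance gives about 1 in 20. Ackr3 was low in uterus library 2, at 36.9 CPM against 46.5 to 47.9 in the other uteri. Ccl28 was low in brain library 4, at 0.710 CPM against 4.64 to 5.34. The scaffold entry of Ccl21c was high in uterus library 3, at 4.82 CPM against 0.0233 to 0.126. By its symbol it belongs to a family of near-identical copies, whose reads cannot be assigned with certainty. Its own sequence was not compared.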

How the results depend on the processing

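Over the alternatives run, 30 to 44 members were called (38 in the report), 25 to 35 higher in uterus and 5 to 9 higher in brain, and 24 to 30 and 4 to 8 past 2-fold. The number of members tested changed with the filter, and 44 is more than the 43 tested in the main fit. All genes gave 13133 calls with the filter at 1 CPM in 4 libraries and 14781 with no filter, against 13989 in the report. Detection gave 25 to 37 members in uterus and 9 to 19 in brain, by limit or library. Detected in brain alone was 1 member, 0 at 2 CPM, and 1 to 2 when single libraries were left out, with 2 without brain library 3. Of 42 tested members with values here, 35 kept call and direction in every alternative run for them (up to 19), the exceptions being Ackr2, Ccl3, Ccl22, Cxcl1, Cxcl5, Cxcl14 and Ccl25. Ccl25, not called, was -0.0073 with RLE scaling, -0.0070 with DESeq2 and -0.020 to 0.11 without single libraries. Upper-quartile and library-size scaling moved the median of all genes from 0.012 to 0.27, and called Ccl25 (0.29 with both) and Cxcl14 higher in uterus. With a replicate block, although the labels do not say that the numbers pair the organs, 35 members were called, 29 higher in uterus and 6 in brain. In this edgeR fit the calls of Ackr2 (adjusted p = 0.10), Ccl3 (0.056) and Cxcl5 (0.083) were lost. Depth limits the members at a few counts: brain values of Xcl1, Cxcl9, Cxcr3 and Ccr3 rest on 5 to 8 counts. The fit on 5 libraries and the sum of near-identical copies were chosen after seeing the data.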
